A study of Mus musculus with 20 samples.

Results

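The genes that build, load and control MHC class II molecules were read in 2 tissues, liver and white adipose tissue (WAT), of mice with and without CD44 on a high-fat diet, named WT(HFD) and CD44KO(HFD). The 10 genes, H2-Aa, H2-Ab1, H2-Eb1, H2-DMa, H2-DMb1, H2-DMb2, H2-Oa, H2-Ob, Cd74 and Ciita, were found by gene name, or by current symbol through the accession, among the 28786 symbols on the array. They were read by 16 probes of the 41174 that were not controls, and the brightest probe stands for each gene. Ciita is listed on the array under its older name C2ta. Total RNA of both tissues came from male C57BL/6 mice aged 7 months, 5 WT and 5 with a whole-body deletion of Cd44, and each of the 20 samples was read on its own single-dye array. Both genotypes had been fed the same HFD, with 35% fat, for 21 weeks, so no lean group was compared. The comparison asks which transcripts differ when CD44, a cell-surface receptor for hyaluronan and osteopontin, is missing. Values are the log2 of the processed signal minus the 75th percentile of that array, so that 0 is the level of a probe at that percentile, and a difference of 1 is a 2-fold difference.

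MHC class II molecules hold peptides from material that a cell has taken up and show them to CD4+ T cells. An α and a β chain, encoded in mouse by H2-Aa with H2-Ab1 and by H2-Ea with H2-Eb1, pair in the endoplasmic reticulum around the invariant chain, the product of Cd74, which blocks the groove and guides the complex to the endosome. There H2-DM, made of the products of H2-DMa and an H2-DMb gene, removes the last fragment of the invariant chain and selects peptides, and H2-DO, from H2-Oa and H2-Ob, holds H2-DM back, mainly in B cells. Ciita is the co-activator that switches the set on in dendritic cells, macrophages and B cells and, after interferon-γ, in other cells. In fatty liver and in the WAT of obese mice, the cells best known for class II are the macrophages, dendritic cells and B cells that lie among the hepatocytes and adipocytes.

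The promoters of the genes that Ciita acts on share a known layout. A factor complex with Rfx5, Rfxank and Rfxap sits on the X box. The NF-Y factors sit on the Y box, a reversed CCAAT sequence, and Ciita docks on both sets of factors. RefSeq promoter windows of build GRCm38.p6, 300 bases each, were at hand for 7 of the 10 genes, all on chromosome 17. They are shown so that this layout could be looked for outside the array. In 6 of the 7 genes the window held the Y box letters TGATTGG on the gene's own strand, with the letters AAC, which belong to the conserved part of the X box, 23 to 26 bases before them. Where 2 AAC lay in that range, 1 is shown. AAC and TGATTGG are in capitals, and each stretch reads 5′ to 3′ on the gene's strand:
H2-Aa, chr17:34287863-34287908, minus strand: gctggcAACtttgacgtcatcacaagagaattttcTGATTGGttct
H2-Eb1, chr17:34305772-34305816, plus strand: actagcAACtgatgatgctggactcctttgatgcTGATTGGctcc
H2-DMb1, chr17:34153093-34153138, plus strand: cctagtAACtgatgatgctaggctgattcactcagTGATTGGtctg
H2-DMb2, chr17:34145122-34145167, plus strand: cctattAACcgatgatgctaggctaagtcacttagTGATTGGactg
H2-Oa, chr17:34092299-34092344, plus strand: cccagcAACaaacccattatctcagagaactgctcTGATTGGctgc
H2-Ob, chr17:34238814-34238856, plus strand: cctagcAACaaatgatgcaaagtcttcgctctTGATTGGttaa

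The Y box of these windows began between 45 and 92 bases before the annotated start. Of all 32851 RefSeq promoter windows, 4.01% held TGATTGG on the gene's strand and 7.82% on either strand. An AAC with 20 to 35 bases between it and TGATTGG stood in 0.651% on the gene's strand and in 1.46% on either strand. That spacing was set after the members' windows had been read. Neither of the 2 windows listed for H2-DMa held TGATTGG on either strand, which says only that these letters are not in those windows.

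The labels were checked first. In liver Cd44 averaged 0.48 ± 0.28 on the WT(HFD) and -3.74 ± 0.41 on the CD44KO(HFD) arrays (SD, n = 5), and in WAT 4.07 ± 0.37 and -0.51 ± 0.13, with adjusted p = 6.65e-06 and 7.64e-06 by limma's moderated test. The percentile used for scaling was a signal of 432.7 to 574.6 in liver and of 1540.9 to 2791.9 in WAT. Spots well above background made up 57.4% to 61.9% of a liver array. In WAT they made up 89.5% of WT(HFD) replicate 1 and 63.2% to 69.5% of the other arrays. Hepatocyte markers averaged 6.97 to 7.68 on the WT(HFD) and 7.57 to 7.95 on the CD44KO(HFD) liver arrays. Adipocyte markers averaged 4.05 to 5.16 on the WT(HFD) and 5.08 to 6.05 on the CD44KO(HFD) WAT arrays. The median log2 fold change, CD44KO(HFD) over WT(HFD), was 0.38 and 0.64. At an adjusted p under 0.05 by limma, 1 of 5 hepatocyte markers rose in liver and 0 of 6 adipocyte markers in WAT. WT(HFD) WAT replicate 1 stood apart from the rest, with a mean r of 0.88 to the other arrays of its group where every other array of the series had at least 0.943. It also had the highest mean of the lymph node stroma markers and, at -1.22, the highest level of the single epididymis marker tested. That marker read -8.62 to -3.45 on the other WAT arrays. The main WAT results are given with and without it.

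In liver the class II genes were lower in CD44KO(HFD) than in WT(HFD) mice. All 9 genes bright enough to be tested had a lower mean in CD44KO(HFD) liver, as had 38.7% of all probes tested. H2-Ob was lower in mean too, but it was at or near background and was not tested. H2-DMb2 was read by a probe that is also listed for H2-DMb1. Of the 9 genes 8 fell at an adjusted p under 0.05, while Cd74 did not pass. Over all 24689 probes tested in liver, 5.75% fell and 13.6% changed in either direction, and 32.2% had an unadjusted p under 0.05. The median log2 fold change was -1.17 over the 9 genes and 0.08 over all probes. Groups without any overlap were found for H2-Ab1, H2-Eb1 and Ciita, that is for 3 of the 10, against 4.22% of all tested probes in the same direction. In these whole-tissue samples, fewer cells of a type and less RNA per cell cannot be told apart.

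**Figure D1:**
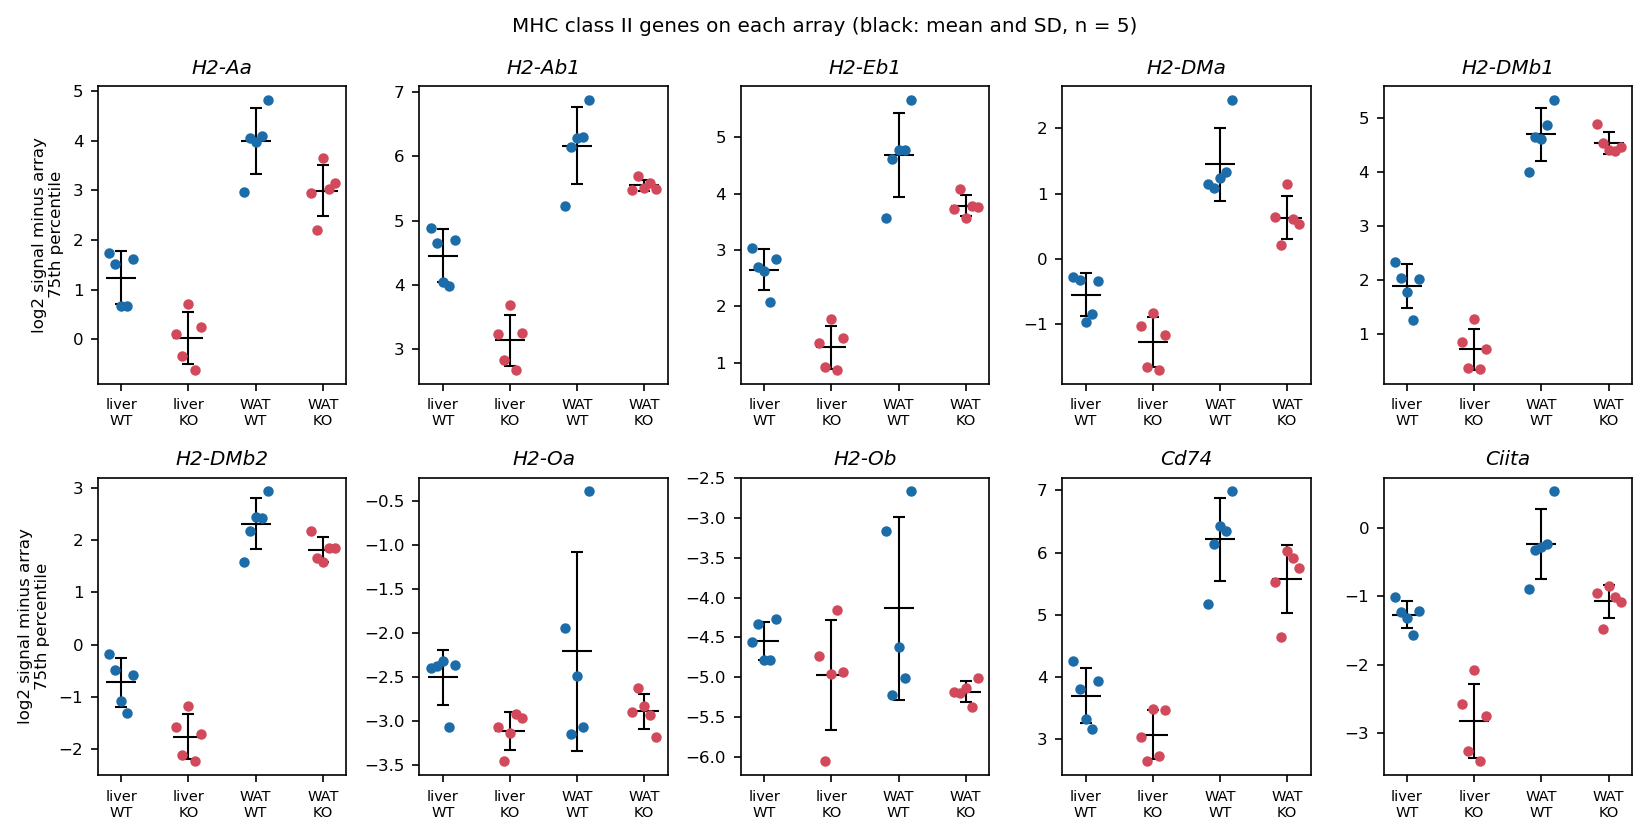
Log2 signal minus the array's 75th percentile for each of the 10 genes (brightest probe), with 1 point per array in replicate order and the mean and SD of the 5 arrays in black. Blue is WT(HFD) and red CD44KO(HFD). In liver the red points lie below the blue ones without overlap for H2-Ab1, H2-Eb1 and Ciita, and in WAT the genotypes overlap for all 10 genes.

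Ciita, the co-activator of the set, had the largest difference of the 9 with the scaling used here. Replicates 1 to 5 of WT(HFD) liver read -1.01, -1.23, -1.32, -1.57 and -1.21, and those of CD44KO(HFD) liver -2.58, -3.27, -2.08, -3.42 and -2.76. Every CD44KO(HFD) liver lay below every WT(HFD) liver, and the CD44KO(HFD) arrays were the more widely spread. The log2 fold change was -1.56 ± 0.23 (SE), a level 2.94-fold higher in WT(HFD), with adjusted p = 0.00952 by limma and an exact two-sided permutation p of 0.0079, the smallest that 5 against 5 arrays can give. With normexp background correction it was -0.86 and did not pass (adjusted p = 0.0696), and H2-Ab1, H2-Eb1, H2-DMb1 and H2-Aa then differed more.

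H2-Ab1 encodes the β chain of I-A, the main class II molecule of this strain. It read 4.88, 4.65, 4.05, 3.98 and 4.70 in WT(HFD) liver and 3.24, 2.84, 3.69, 2.68 and 3.25 in CD44KO(HFD) liver. The groups did not overlap, and CD44KO(HFD) replicate 3 came closest to the lowest WT(HFD) arrays, replicates 3 and 4. Its log2 fold change was -1.31 ± 0.23 (adjusted p = 0.0128, exact permutation p = 0.0079).

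H2-Aa encodes the α chain of I-A. It read 1.74, 1.51, 0.67, 0.67 and 1.62 in WT(HFD) liver against 0.11, -0.33, 0.71, -0.62 and 0.25 in CD44KO(HFD) liver. Here CD44KO(HFD) replicate 3 lay just above WT(HFD) replicates 3 and 4, so the groups overlapped, with a log2 fold change of -1.22 ± 0.30 (adjusted p = 0.0281, exact permutation p = 0.0238).

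H2-Eb1, the β chain of I-E, read 3.03, 2.69, 2.62, 2.07 and 2.84 in WT(HFD) liver and 1.35, 0.93, 1.78, 0.87 and 1.44 in CD44KO(HFD) liver. The groups were apart, and the log2 fold change was -1.38 ± 0.21 (adjusted p = 0.00994, exact permutation p = 0.0079). C57BL/6 mice are known to make no I-E because their H2-Ea gene is not transcribed, and the H2-Ea probe was not well above background on 19 of 20 arrays. The exception was WT(HFD) WAT replicate 1, at -3.00. H2-Eb2, a further β chain gene, was also too dim to be tested in either tissue.

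Cd74, the invariant chain, was the tested gene that did not pass. It read 4.26, 3.81, 3.32, 3.17 and 3.93 in WT(HFD) liver and 3.04, 2.64, 3.49, 2.73 and 3.47 in CD44KO(HFD) liver. CD44KO(HFD) replicates 3 and 5 lay above WT(HFD) replicates 3 and 4. The log2 fold change of -0.62 (95% interval -1.16 to -0.09) had an adjusted p of 0.107 and an exact permutation p of 0.0635. With the slide as a block it passed (adjusted p = 0.0241).

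The peptide editor H2-DM was lower in both of its chains. H2-DMb1, a β chain, read 2.33, 2.04, 1.77, 1.25 and 2.02 in WT(HFD) liver against 0.84, 0.37, 1.27, 0.35 and 0.72 in CD44KO(HFD) liver. CD44KO(HFD) replicate 3 lay just above WT(HFD) replicate 4, and the other arrays were apart. The log2 fold change was -1.17 ± 0.23 (adjusted p = 0.0163, exact permutation p = 0.0159).

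H2-DMa, the α chain, fell by less. It read -0.27, -0.33, -0.97, -0.84 and -0.34 in WT(HFD) liver and -1.02, -1.66, -0.83, -1.70 and -1.16 in CD44KO(HFD) liver, so that the 2 lowest WT(HFD) arrays lay within the CD44KO(HFD) range. Its log2 fold change was -0.72 ± 0.21 (adjusted p = 0.0467, exact permutation p = 0.0238). With the array's median in place of the 75th percentile it did not pass (adjusted p = 0.0577).

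H2-DMb2 is a second β chain gene for H2-DM. Its brightest probe is listed in the files for the transcripts of both H2-DMb1 and H2-DMb2, and it read -1.31 to -0.18 in WT(HFD) and -2.24 to -1.17 in CD44KO(HFD) liver, with a log2 fold change of -1.04 ± 0.25 (adjusted p = 0.0284). The other probe, listed for H2-DMb2 and not for H2-DMb1, was not well above background on any liver array. The liver value named H2-DMb2 can therefore hold H2-DMb1 transcript, and the share of each was not measured.

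H2-DO, the partner that holds H2-DM back, was dim in liver. H2-Oa read -2.40, -2.38, -2.32, -3.07 and -2.36 in WT(HFD) liver and -3.07, -3.46, -3.14, -2.92 and -2.97 in CD44KO(HFD) liver, with WT(HFD) replicate 4 inside the CD44KO(HFD) range. The brightest probe fell by 0.61 on the log2 scale (SE 0.16, adjusted p = 0.0350), while the second probe, with a log2 fold change of -0.29 ± 0.22, did not pass (adjusted p = 0.379). With normexp background correction the brightest probe was at -0.12 (adjusted p = 0.705). H2-Ob was well above background on 1 WT(HFD) and 0 CD44KO(HFD) liver arrays and was not tested there.

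**Figure D2:**
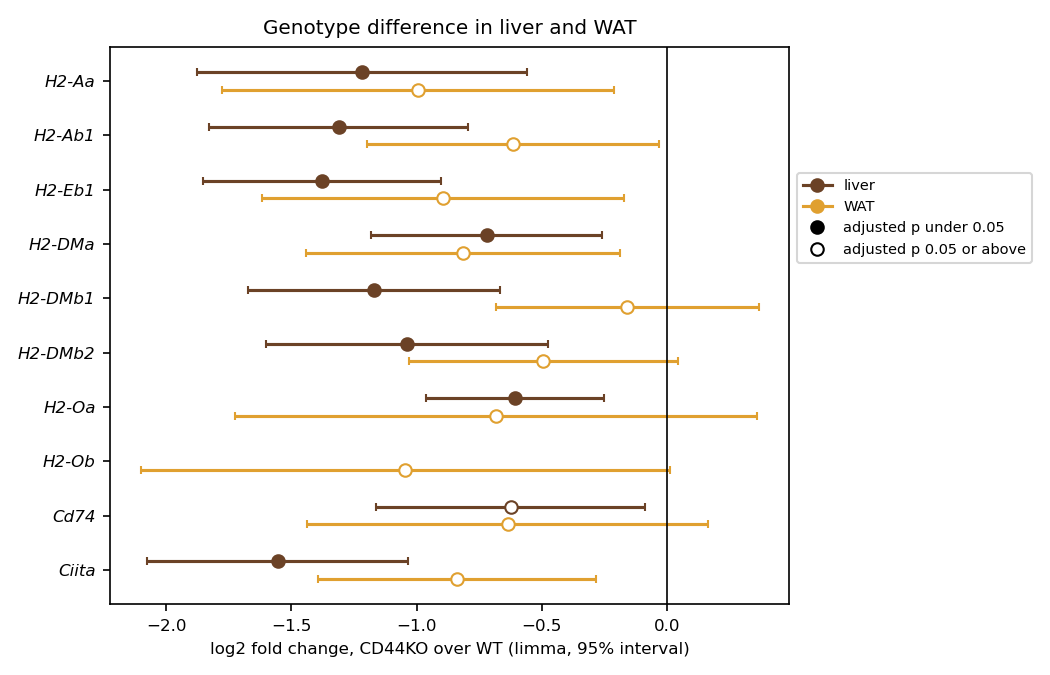
Log2 fold change of CD44KO(HFD) over WT(HFD) with its 95% interval from limma, for each gene in liver (brown) and WAT (yellow), with filled points for an adjusted p under 0.05. In liver 8 genes are filled, with values from -1.56 for Ciita to -0.61 for H2-Oa, and in WAT all 10 lie below 0 and none is filled.

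H2-Ab1 and H2-Aa were read by more than 1 probe, and all of these gave a similar liver difference. The 4 probes of H2-Ab1 had log2 fold changes of -1.31, -1.33, -1.23 and -1.20, and the 2 of H2-Aa of -1.22 and -1.34, all with adjusted p between 0.0128 and 0.0353. A pair of the H2-Ab1 probes overlaps over 31 bases, 29 of them identical. They are shown because their sequences differ within one stretch of this gene. The files place the first at chr17:32342603-32342662 of build mm7 and give no position for the second, which they list for other H2-Ab1 records. Both have 60 bases, and the bases that differ in the overlap are in capitals:
H2-Ab1 probe 1: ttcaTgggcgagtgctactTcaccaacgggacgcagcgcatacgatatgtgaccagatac
H2-Ab1 probe 2: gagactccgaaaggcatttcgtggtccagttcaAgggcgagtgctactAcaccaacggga

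The differences are T5A and T20A, counted from 1 at the 5′ end of probe 1 with the base of probe 2 last. Probe 1 gave a liver log2 fold change of -1.23 ± 0.31 and probe 2 of -1.20 ± 0.32, so both probes gave a like genotype difference within its error. In WAT the 4 H2-Ab1 probes had log2 fold changes of -0.61, -0.99, -1.13 and -1.18, with adjusted p between 0.194 and 0.319, so there the brightest probe gave the smallest difference.

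The liver calls fell into 2 kinds when 1 array was left out. H2-Ab1, H2-Eb1, H2-DMb1 and Ciita passed in all 10 such fits, with adjusted p up to 0.0394, 0.0308, 0.0481 and 0.0300. H2-Aa, H2-DMa and H2-DMb2 passed in 3 of the 10, and H2-Oa in 2. The number past the threshold dropped from 8 to 4 without WT(HFD) replicate 1, 2 or 5 and without CD44KO(HFD) replicate 1, 2, 4 or 5. It was 7 or 8 without WT(HFD) replicate 3 or 4 or CD44KO(HFD) replicate 3. For the tested genes other than H2-Oa those 3 arrays lay nearest to the other genotype. Every one of the 9 genes kept a negative difference in each of these fits.

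**Figure D3:**
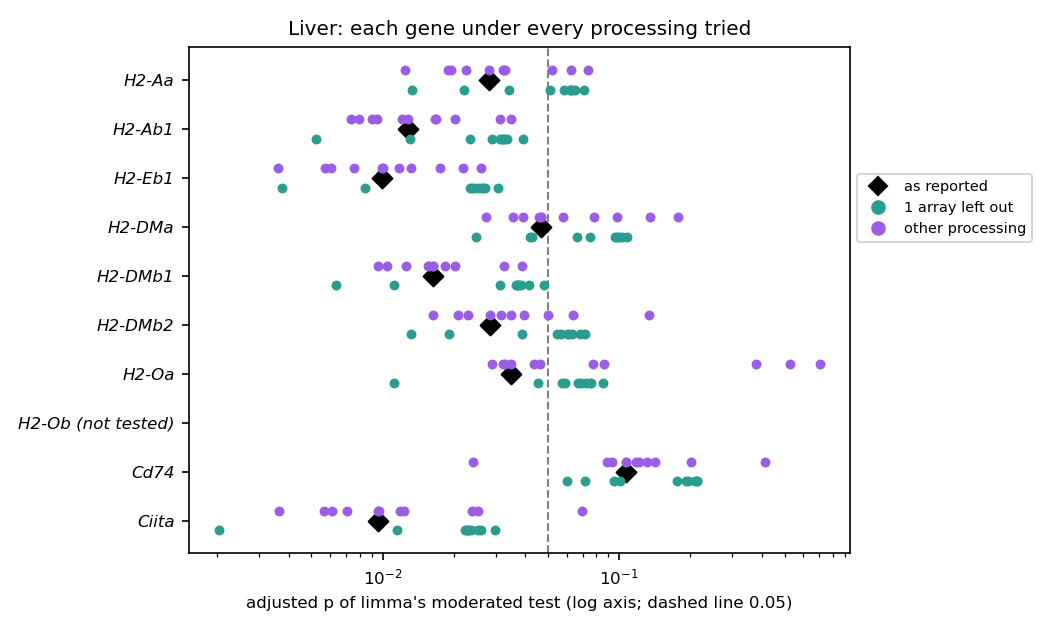
Adjusted p of limma's moderated test for each gene in liver, on a log axis, as reported (black), with 1 array left out (green) and under the other processing tried (purple), with 0.05 dashed. H2-Ab1, H2-Eb1 and H2-DMb1 stay left of the line throughout and Ciita crosses it once, at 0.0696 with normexp background correction. H2-Ob was not tested in liver.

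The liver arrays were spread over 3 slides that each held both genotypes. Within slides the 9 tested genes were all lower in CD44KO(HFD) liver, with log2 differences of -1.95 to -0.46 on slide 1, -1.32 to -0.61 on slide 2 and -1.26 to -0.04 on slide 3, where 1 array stood against 1. With the slide as a block all 9 genes passed.

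In WAT no class II gene passed the test. All 10 genes were tested and had a lower mean in CD44KO(HFD) WAT, as had 55.3% of all probes tested. The median log2 fold change of the 10 was -0.75 against -0.06 over all probes, and the smallest adjusted p was 0.208, for Ciita. limma called 0 of the 10, and 5 of them, H2-Aa, H2-Ab1, H2-Eb1, H2-DMa and Ciita, had an unadjusted p under 0.05, as had 14.9% of all probes. The background of adjusted calls was low, since only 0.0289% of the 27653 probes tested fell and 0.0398% changed in either direction. None of the 10 was without overlap, against 2.07% of all tested probes that lay lower in every CD44KO(HFD) WAT.

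H2-Ab1 shows the pattern of the WAT arrays. WT(HFD) replicates 1 to 5 read 5.23, 6.14, 6.28, 6.30 and 6.88, and CD44KO(HFD) replicates 5.48, 5.69, 5.50, 5.58 and 5.49. The CD44KO(HFD) arrays lay close together, and all lay below 4 of the 5 WT(HFD) arrays and above WT(HFD) replicate 1. The log2 fold change was -0.61 (95% interval -1.20 to -0.03, adjusted p = 0.319). H2-Eb1 was ordered alike, with WT(HFD) at 3.57, 4.61, 4.78, 4.77 and 5.67 and CD44KO(HFD) at 3.73, 4.08, 3.57, 3.78 and 3.77. Its log2 fold change was -0.89 (95% interval -1.62 to -0.17, adjusted p = 0.257).

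H2-Aa read 2.96, 4.06, 3.98, 4.10 and 4.83 in WT(HFD) WAT and 2.95, 2.21, 3.65, 3.02 and 3.14 in CD44KO(HFD) WAT. Again 4 of the 5 WT(HFD) arrays lay above all CD44KO(HFD) arrays, and the log2 fold change was -1.0 (95% interval -1.78 to -0.21, adjusted p = 0.250). Ciita read -0.90, -0.32, -0.28, -0.23 and 0.54 against -0.96, -1.48, -0.85, -1.01 and -1.08, with WT(HFD) replicate 1 as the single overlapping array (log2 fold change -0.84, 95% interval -1.39 to -0.28). Without WT(HFD) replicate 1 the log2 fold changes were -0.85 for H2-Ab1, -1.17 for H2-Eb1, -1.25 for H2-Aa and -1.0 for Ciita, and 0 of the 10 genes passed.

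Cd74 read 5.17, 6.14, 6.43, 6.34 and 6.99 in WT(HFD) WAT and 5.53, 4.64, 6.02, 5.92 and 5.76 in CD44KO(HFD) WAT. Its log2 fold change of -0.64 had an interval that reached past 0 (-1.44 to 0.16), and it was -0.40 without CD44KO(HFD) replicate 2. H2-DMa had 4 WT(HFD) arrays between 1.08 and 1.33 and replicate 5 at 2.44, against 0.22 to 1.15 in CD44KO(HFD) WAT, and its log2 fold change of -0.81 dropped in size to -0.56 without that array.

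H2-DMb1 differed least in WAT. It read 4.0, 4.64, 4.60, 4.87 and 5.34 in WT(HFD) and 4.89, 4.53, 4.40, 4.39 and 4.46 in CD44KO(HFD) WAT, with a log2 fold change of -0.16 (95% interval -0.68 to 0.36). Without WT(HFD) replicate 5 it was 0.0041. With the array median in place of the 75th percentile it was 0.32, and that scaling moved the median of all WAT probes by 0.48, so its place relative to other probes did not change. The probe shared by H2-DMb1 and H2-DMb2 read -0.49 ± 0.24 (adjusted p = 0.366).

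H2-Oa and H2-Ob were high on a pair of WT(HFD) WAT arrays. H2-Ob read -3.16, -5.23, -4.62, -5.01 and -2.66 in WT(HFD) WAT and between -5.38 and -5.01 in CD44KO(HFD) WAT. H2-Oa read -1.95, -3.15, -2.49, -3.07 and -0.39 against -3.18 to -2.63. Both were high in WT(HFD) replicates 1 and 5, and the other WT(HFD) arrays lay near or within the CD44KO(HFD) range. The probe listed for H2-DMb2 alone did the same, at -2.34, -5.03, -4.49, -5.11 and -1.88 in WT(HFD) and -6.18 to -4.62 in CD44KO(HFD) WAT. Without replicates 1 and 5, an alternative chosen after the values were seen, the log2 fold change of H2-Oa went from -0.68 to 0.0097 and that of H2-Ob from -1.05 to -0.23. Without replicate 1 alone they were -0.62 and -0.80.

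Lymphoid markers moved with these 3 readings. The mean of the 10 B cell markers tested in WAT was -1.53 on WT(HFD) replicate 1 and -1.35 on replicate 5, between -3.92 and -2.90 on the other 3 WT(HFD) arrays, and between -4.05 and -3.31 in CD44KO(HFD) WAT. Over the 10 arrays, as deviations from group means, r with that mean was 0.95 for H2-Ob, 0.92 for the H2-DMb2 probe and 0.85 for H2-Oa. It was 0.06 for H2-Aa, -0.12 for H2-Ab1, -0.05 for H2-Eb1, 0.06 for Cd74 and 0.21 for Ciita, and 0.59 for H2-DMa. These are descriptions over arrays that share their scaling. The contrast between genes rests on replicate 1, since without it, a setting chosen after the values were seen, r was 0.94 for H2-Ob and 0.92 for H2-Oa but also 0.67 for H2-Aa, 0.81 for H2-Ab1, 0.74 for H2-Eb1, 0.66 for Cd74, 0.86 for Ciita and 0.88 for H2-DMa. The 4 lymph node stroma markers averaged -0.85 on replicate 1, with Glycam1 at -0.57 there and from -8.20 to -5.64 on the other WT(HFD) arrays. On replicate 5 they averaged -2.23, with Ccl19 at 3.49 and Cxcl13 at 0.56. Madcam1 read -6.98 there, not well above background, and Glycam1 read -6.00. T cell markers averaged -1.67 and -0.87 on replicates 1 and 5 and -3.08 to -2.44 on the other WT(HFD) arrays. Dendritic cell markers averaged -1.34 and -1.84 there and -2.73 to -2.68 on the others, so the pattern was shared by several cell types. Dim probes of other kinds were also high on replicate 1, with H2-Ea at -3.00 and the epididymis marker at -1.22. On that array 89.5% of the spots were well above background. Whether its dim probes as a whole read high was not tested, nor was the part of these cells in the class II values.

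**Figure D4:**
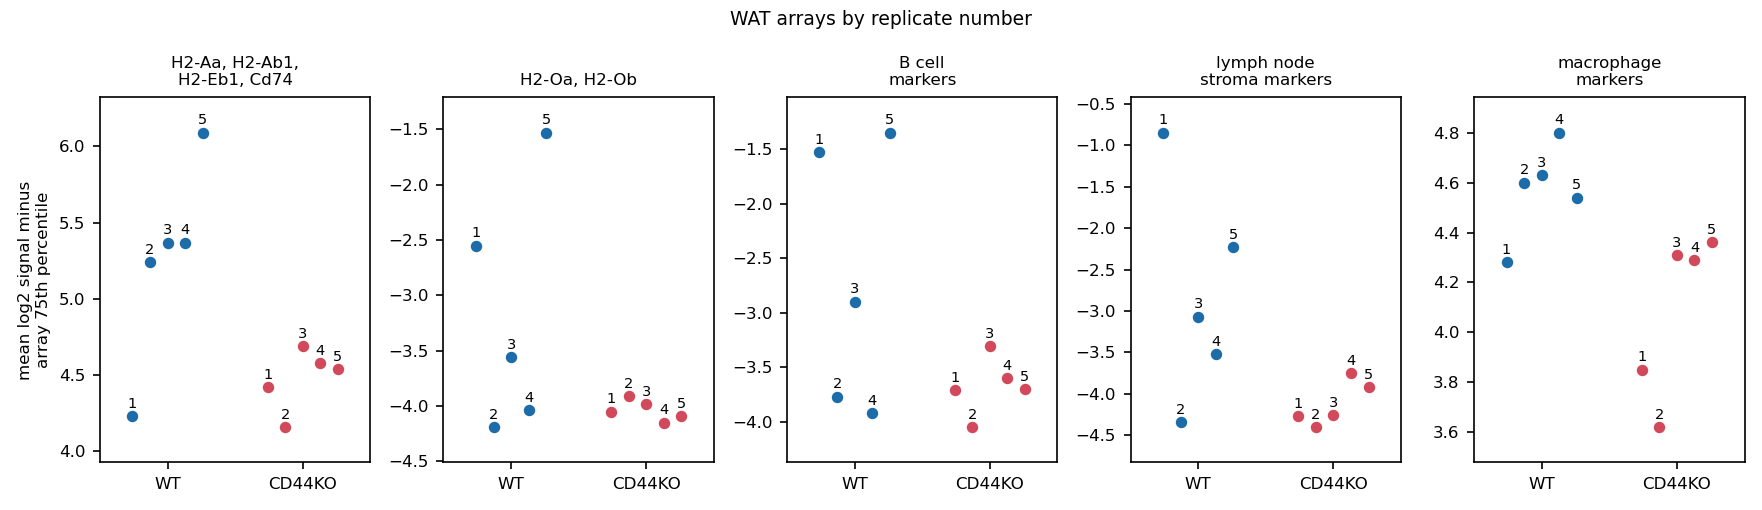
Mean log2 signal minus the array's 75th percentile on each WAT array, with the replicate number above each point, for the 4 core class II genes, H2-Oa with H2-Ob, and the tested B cell, lymph node stroma and macrophage markers. WT(HFD) replicates 1 and 5 are the highest for H2-Oa with H2-Ob and for the B cell markers, while for the core genes replicate 1 is the lowest WT(HFD) array and replicate 5 the highest.

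WAT slides 1 and 2 held both genotypes. On slide 1, with 2 arrays each, the differences ranged from -1.02 for H2-Ob to 0.06 for H2-DMb1, and on slide 2, with 3 WT(HFD) and 1 CD44KO(HFD) arrays, from -1.45 for H2-Eb1 to -0.43 for H2-DMa. Slide 3 held CD44KO(HFD) arrays only.

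The genotype difference was not shown to depend on the tissue. The difference of the effects, WAT minus liver, passed for 0 of the 10 genes by limma over all 20 arrays, while 1.15% of the 28988 probes passed. At an unadjusted p under 0.05, which 15.8% of all probes had, there was 1 gene, H2-DMb1, with -1.17 in liver, -0.16 in WAT and a difference of 1.01 (95% interval 0.30 to 1.72, adjusted p = 0.144). For H2-Ab1 the difference was 0.70 (-0.06 to 1.46) and for Ciita 0.72 (-0.03 to 1.46). For Cd74 it was -0.01 (-0.97 to 0.94) and for H2-DMa -0.09 (-0.85 to 0.67), intervals that hold sizeable differences in both directions. Liver and WAT of a mouse may both be among the samples, and the fit treats them as independent.

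Of the 10 class II genes 8 were brighter in WAT than in liver relative to the other probes of an array. For H2-Aa, H2-Ab1, H2-Eb1, H2-DMa, H2-DMb1, H2-DMb2, Cd74 and Ciita the group means rose in the order CD44KO(HFD) liver, WT(HFD) liver, CD44KO(HFD) WAT and WT(HFD) WAT. In 7 of these 8 every WAT array lay above every liver array, and for Ciita WT(HFD) liver and CD44KO(HFD) WAT overlapped. Between WT(HFD) tissues the level of H2-Aa differed by 2.75 and that of Ciita by 1.03. For H2-Oa the WT(HFD) tissues differed by 0.30 and the CD44KO(HFD) tissues by 0.22, and none of its neighbouring groups were apart. H2-Ob was at or near background in liver, so no difference is given. The tissues were hybridised on separate slides, so tissue and slide set cannot be told apart.

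In liver the class II genes other than H2-Oa and H2-Ob moved together within a group. As deviations from group means over the 10 liver arrays, H2-Aa, H2-Ab1, H2-Eb1 and Cd74 correlated with r between 0.904 and 0.994, and all pairs among the 8 genes other than H2-Oa and H2-Ob between 0.771 and 0.994. Ciita had r of 0.90 with H2-Eb1, 0.89 with H2-DMb1 and 0.77 with Cd74 in liver. Pairs of H2-Oa or H2-Ob with the other 8 had a median r of 0.28 in liver, where H2-Ob was near background. In WAT the values were lower and turned on 1 array. The 4 core genes correlated at 0.60 to 0.986 in WAT and at 0.129 to 0.976 without WT(HFD) replicate 1. Pairs of H2-Oa or H2-Ob with the other 8 had a median r of 0.23 in WAT, with H2-DMa at 0.73 and 0.59, and without that array the median was 0.74. H2-Oa and H2-Ob correlated with each other at 0.90, and at 0.97 without it. The arrays of a pair share their RNA and scaling, and these values are descriptions.

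Among 17565 other symbols tested in liver, the 5 whose deviations were most like the mean of H2-Aa, H2-Ab1, H2-Eb1 and Cd74 were Hspb2, Exoc8, 2210013O21Rik, Hivep3 and Calhm5, with r between 0.976 and 0.984. Without the 2 arrays farthest from the median they stayed between 0.964 and 0.987. In WAT the 5 of 19032 were Tesk2, Slc16a12, Tkfc, Insl3 and Sybu, at 0.957 to 0.965, and without WT(HFD) replicates 1 and 5 these went to 0.72, 0.73, 0.95, 0.53 and 0.75. With 10 arrays and this many symbols, high values are drawn from a long list, and nothing is read from them.

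Of the factors that act on class II promoters, 3 of the 13 tested in liver fell and 0 rose. For this and the lists below, 5.75% of all probes tested in liver fell and 13.6% changed in either direction. An unadjusted p under 0.05 was found for 32.2% of all probes in liver and 14.9% in WAT. Irf8, a factor of macrophages and dendritic cells, read 1.69, 1.49, 1.19, 1.20 and 1.47 in WT(HFD) and 0.90, 0.66, 0.97, 0.53 and 0.97 in CD44KO(HFD) liver, without overlap. Its log2 fold change was -0.60 ± 0.13 (adjusted p = 0.0194). Nfya, a subunit of NF-Y, fell by 0.34 (SE 0.09, adjusted p = 0.0328). The subunits of the X box complex did not pass, with log2 fold changes of -0.06 for Rfx5, -0.04 for Rfxank and 0.07 for Rfxap. Ifng was near background, at -4.14 ± 0.38 in WT(HFD) and -4.97 ± 0.69 in CD44KO(HFD) liver (adjusted p = 0.104). In WAT 0 of the 14 passed, 2 of them with an unadjusted p under 0.05, and the median log2 fold change was -0.06.

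Of the 8 genes that process antigen and the invariant chain, 2 fell in liver. They were Ctsd, an aspartic protease of the lysosome, by 0.42 (SE 0.10, adjusted p = 0.0251), and Ctsz, a lysosomal carboxypeptidase, by 0.52 (SE 0.14, adjusted p = 0.0353). Ctss, the protease best known for trimming the invariant chain, had a log2 fold change of -0.72 ± 0.26 that did not pass (adjusted p = 0.0873). In WAT 0 of 8 passed, 2 of them with an unadjusted p under 0.05. Of Marchf1, Marchf8 and Cd83, which set how long class II stays at the surface, 0 of 3 passed in either tissue, with 1 in liver and 2 in WAT at an unadjusted p under 0.05. Of the costimulatory and inhibitory surface molecules 1 of 4 tested fell in liver. It was Cd274 (PD-L1), an inhibitory ligand, by 0.42 (SE 0.12, adjusted p = 0.0480). In WAT 0 of 6 passed, 2 of them with an unadjusted p under 0.05.

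The genes of MHC class I presentation, which serves CD8+ T cells and runs in nearly all cells, moved in both directions in liver. Of 14 tested, 4 fell and 1 rose, with a median log2 fold change of -0.25. Psmb9 and Psmb8, subunits of the immunoproteasome, fell by 0.81 (SE 0.13, adjusted p = 0.0103) and 0.56 (SE 0.09, adjusted p = 0.0106). H2-D1, a class I heavy chain, fell by 0.51 and H2-M3 by 0.38 (adjusted p = 0.0229 and 0.0480), while Erap1, which trims peptides in the endoplasmic reticulum, rose by 0.37 (adjusted p = 0.0245). B2m, the light chain, had a log2 fold change of -0.19 ± 0.10 and did not pass. In WAT 0 of 14 passed, 1 of them with an unadjusted p under 0.05.

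Markers of cells that carry class II did not all move one way in liver. Of the 9 macrophage markers tested 0 passed, 2 of them with an unadjusted p under 0.05, as had 32.2% of all liver probes. The macrophage list had a median log2 fold change of -0.01, with means between 1.42 and 2.59 in WT(HFD) and between 1.74 and 2.79 in CD44KO(HFD) liver. Of the 5 Kupffer cell markers, those of the resident liver macrophage, 2 rose, Timd4 by 2.99 and Marco by 2.95 (adjusted p = 0.0414 and 0.0410). Of the 8 dendritic cell markers 2 fell. Itgax, which is CD11c, read 0.67, 0.07, -0.77, -1.58 and -0.58 in WT(HFD) and -2.63, -3.33, -1.19, -3.20 and -1.91 in CD44KO(HFD) liver, with CD44KO(HFD) replicate 3 above WT(HFD) replicate 4 and a log2 fold change of -2.01 ± 0.49 (adjusted p = 0.0284). Ccr7, the receptor that leads dendritic cells and T cells to lymph nodes, fell by 1.08 (SE 0.24, adjusted p = 0.0229). Neither is made by dendritic cells alone, since Itgax is also a marker of macrophages in obese tissue. The other 6 did not pass, with log2 fold changes of -0.46 for Clec9a, 0.26 for Flt3, 0.50 for Zbtb46, 0.02 for Xcr1, -0.25 for Batf3 and -0.17 for Itgae.

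Of the 9 T cell markers tested in liver 5 fell, Cd3d, Cd3g, Cd8a, Lck and Cd5, and the list means were between -2.35 and -1.69 in WT(HFD) and between -2.94 and -2.77 in CD44KO(HFD) liver, with no overlap. The log2 fold change was 0.20 for Cd4, 0.12 for Cd3e, -0.21 for Cd8b1 and -0.31 for Cd2, which did not pass. Each list gene was read by its brightest probe only, and the study's own liver list gives Cd8b1 as reduced. Of the 9 B cell markers 0 passed, with a median log2 fold change of 0.06 and list means of -3.39 to -2.82 and -3.38 to -2.90. Of the 6 stellate cell and fibroblast markers 3 fell, with log2 fold changes of -2.38 for Col1a1, -1.60 for Col3a1 and -0.45 for Dcn (adjusted p = 0.0255, 0.0227 and 0.0234), and the list averaged 1.58 to 2.55 in WT(HFD) and 0.72 to 1.78 in CD44KO(HFD) liver. Of the 3 general leukocyte markers 0 passed, 2 of them with an unadjusted p under 0.05, with a median log2 fold change of -0.60 and list means of 0.01 to 0.87 and -0.70 to 0.44. The dendritic cell list averaged -2.64 to -1.98 in WT(HFD) and -2.91 to -2.33 in CD44KO(HFD) liver. Within the CD44KO(HFD) livers, replicates 3 and 5 had the highest core class II means, 2.42 and 2.10. They also had the highest macrophage, Kupffer cell and dendritic cell means. In WT(HFD) liver the orders differed. There replicate 3 had a core mean of 2.67, below replicates 1, 2 and 5, but a dendritic cell mean of -2.01, above replicates 2 and 5. The part of each cell type in the class II values was not tested.

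**Figure D5:**
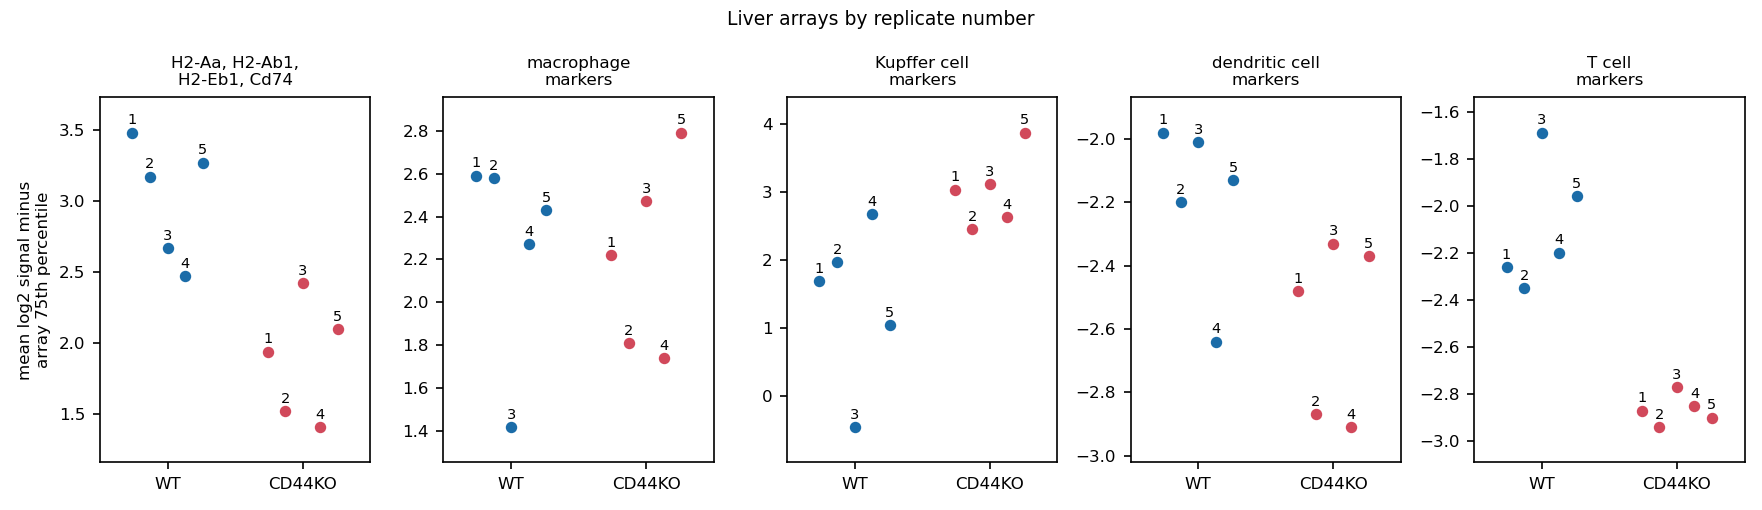
Mean log2 signal minus the array's 75th percentile on each liver array, with the replicate number above each point, for the 4 core class II genes and the tested macrophage, Kupffer cell, dendritic cell and T cell markers. The core genes and the T cell markers lie lower in every CD44KO(HFD) liver, the macrophage markers overlap, and the Kupffer cell markers lie higher in CD44KO(HFD) on average.

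In WAT 0 of the markers of any of these cell types passed, where only 0.0398% of all probes did. An unadjusted p under 0.05, which 14.9% of all probes had, was found for 4 of 10 macrophage and 5 of 10 T cell markers. It was also found for 2 of 10 B cell, 2 of 10 dendritic cell, 1 of 5 Kupffer cell and 1 of 3 general leukocyte markers. Of the stellate cell and fibroblast markers 0 of 5 had it. The macrophage list had a median log2 fold change of -0.54, with means of 4.28 to 4.80 in WT(HFD) and 3.62 to 4.36 in CD44KO(HFD) WAT, and Itgax read -0.60 ± 0.21 (adjusted p = 0.248). The general leukocyte markers Ptprc, Coro1a and Laptm5 averaged 3.32 to 3.73 in WT(HFD) and 2.16 to 3.18 in CD44KO(HFD) WAT, without overlap between the genotypes.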

How the data were processed

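The arrays were Agilent mouse genome chips read with 1 dye. The authors deposited, per spot, the processed signal of Feature Extraction (version 9.5 in the submitters' processing notes), a linear intensity with trends within the array corrected, no background subtracted and no scaling between arrays, together with mean and background intensities and marks for spots above background. The series table held the same values. Positions are those of the files (build mm7).

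Outlier spots were dropped, log2 was taken, the 75th percentile of the array was subtracted and repeated spots were averaged. A probe was tested in a tissue where 3 or more of the 5 arrays of either genotype marked it as well above background, with limma 3.58.1 (lmFit, eBayes) in R 4.3.3, adjusted by Benjamini-Hochberg over all probes tested, at a threshold of 0.05. The difference of effects used all 20 arrays together. An exact permutation test over 252 relabellings was added for each member. The code was tested on simulated data. The methods name no test for the arrays. Members, gene lists and tests were chosen with earlier results of these data known. Genes named are the members, genes of the pathway lists and marker genes past the threshold, the 5 symbols most alike in each tissue, and Cd44. Values of other genes (Rfx5, Rfxank, Rfxap, Ifng, Ctss, B2m, Itgax in WAT, the list members named as not passing, Glycam1, Ccl19, Cxcl13, Madcam1, H2-Ea) were named after they were seen. Single values of some list genes are not reported here. The remaining marker lists (plasma cell, hepatocyte, adipocyte, stellate cell and fibroblast, endothelium, mesothelium, epididymis) were read as checks of the samples. Promoters are RefSeq's (GRCm38.p6). Nothing says whether arrays of a group are separate mice beyond the 5 mice per genotype that the study names, so p-values measure the spread between these samples.

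Alternatives were normexp background correction with an offset of 50, quantile or median scaling, other filters, the series table, a trended and robust eBayes, replicate number or slide as a block, 1 fit of all arrays, other probes, and each array left out.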

Additional observations from a re-analysis of the deposited data

Results flagged for a closer look

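In 3 of the 40 groups of 5 arrays (10 genes in 4 groups), 1 array lay far from the others. Chance gives about 1 in 20. H2-DMa was 2.44 in WT(HFD) WAT replicate 5, with the other 4 arrays between 1.08 and 1.33. H2-DMb1 was 4.89 in CD44KO(HFD) WAT replicate 1, with the others between 4.39 and 4.53. H2-Oa was -3.07 in WT(HFD) liver replicate 4, with the others between -2.40 and -2.32, and without that array its log2 fold change in liver was -0.75 in place of -0.61.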

How the results depend on the processing

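In liver the count of class II genes past the threshold was 8 and ranged from 4 to 9 under the other processing and from 4 to 8 with 1 array left out. It was 4 with normexp background correction (H2-Aa, H2-Ab1, H2-Eb1 and H2-DMb1), 4 with no filter on dim probes, 4 with the replicate number as a block and 5 with all 20 arrays in 1 fit, and all differences stayed negative. Calls over all probes went from 3358 to 641 with normexp, where 66.3% of them were lower against 42.3%, to 1027 without the filter, 1329 with the replicate block and 638 in the fit of all arrays, and ran from 858 to 4647 with 1 array left out. The replicate numbers do not pair the mice of the 2 genotypes, with r of -0.04 to 0.42 between same-numbered liver arrays, 1 of 5 of which correlated best with its own number.

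In WAT and for the difference between tissues 0 genes passed under every setting, the replicate block included. Calls over all WAT probes went from 11 to between 3 and 1647, and those for the difference from 334 to between 0 and 599. H2-DMb1 in WAT turned to 0.32 with the array median and ran from -0.33 to 0.0041 with 1 array left out (without WT(HFD) replicate 1 and 5), and H2-Oa to 0.0097 without WT(HFD) replicates 1 and 5. Quantile and median scaling moved the median of all WAT probes by 0.17 and 0.48. The causes were not tested. Signal over background limits H2-Ob, H2-Eb2 and the second H2-DMb2 probe in liver.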
